A study of Homo sapiens with 6 samples.

Results

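The integrated stress response targets described here are 34 genes chosen by symbol: transcription factors, feedback and stress effectors, enzymes of serine, one-carbon, asparagine, proline and cysteine metabolism, and amino acid transporters. They were found in the expression table by Ensembl gene ID, and all 34 are among its 61895 rows. A total of 33 members had a mean of at least 1 TPM (the share of transcript molecules in a library that belongs to a gene, scaled to a fixed total and corrected for length) and were tested among 14874 such rows. The member under that level was ALDH1L2, a mitochondrial folate enzyme, at 0.67 ± 0.092 TPM in control and 0.61 ± 0.26 TPM in knockdown cells (SD, n = 3 each). The RNA came from cells labelled PC3, a line known from a bone metastasis of human prostate cancer and from its androgen-independent growth. One group carried a lentiviral short hairpin against CTSZ, which encodes the lysosomal cysteine protease cathepsin Z (shCTSZ, genotype label shCTSZ, 3 libraries). The other carried the control vector (shControl, genotype label NC, 3 libraries), so lentiviral delivery and antibiotic selection of a stable population are shared by both. The sources used here do not say how many hairpins were used or whether each library stands for a culture of its own. The p-values therefore measure the spread among these samples alone, which may be technical.

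The integrated stress response begins when kinases that sense uncharged tRNA, unfolded protein in the endoplasmic reticulum, viral RNA, haem shortage or mitochondrial damage phosphorylate the initiation factor eIF2. General translation then slows, while upstream reading frames let the messenger of the transcription factor ATF4 be translated more. ATF4, often paired with C/EBP proteins, induces genes for amino acid synthesis and uptake, and with longer stress DDIT3 and genes that switch the response off or lead to cell death. ATF4 activity is set to a large part at translation, and no protein was measured here.

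The targeted gene CTSZ held 92.8 ± 2.1 TPM with the control vector and 19.9 ± 1.7 TPM with the hairpin, a fall in the labelled direction (log2 difference -2.17, limma adjusted p = 2.49e-05). The markers of the labelled cell line were mixed. KRT8, KRT18, VIM, ITGA6 and CD44 were present and KLK3 was at 0 in all 6 libraries, but the epithelial adhesion gene EPCAM was at 0.04 to 0.22 TPM, although PC3 is known as an epithelial line that carries it. CTNNA1, known as lost in that line, held 263 to 282 TPM over libraries of both groups. Whether the libraries come from PC3 cells was not tested. Of 17 markers of leukocytes, fibroblasts and endothelium, 3 reached a mean of 1 TPM, and AIF1, DCN, LUM and KDR were at 0 in all 6 libraries. The summed level of the leukocyte markers was 12.0 to 14.8 TPM in shControl and 10.6 to 12.8 TPM in shCTSZ. That of the fibroblast markers was 3.95 to 4.97 and 1.62 to 2.48 TPM, and that of the endothelial markers 1.24 to 1.75 and 1.61 to 2.32 TPM. Mitochondrially encoded genes took 5.10% to 5.38% of TPM in shControl and 6.24% to 6.38% in shCTSZ. With these genes left out and TPM rescaled, 15 members were lower and 7 higher, against 15 and 6 with them, the added call being MTHFD2. Of all tested genes 2048 were lower and 3165 higher without them, against 2185 and 2950 with them. The depth of the libraries is unknown, because TPM do not hold it, and values carry no counting intervals. In bulk RNA a change in every cell cannot be told apart from a larger change in some of them.

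The DNA element through which ATF4 and C/EBP proteins are known to act was looked for in the promoters, because these genes are grouped by that control. RefSeq promoter windows (GRCh38.p14, 250 bases before to 50 bases after the start) were at hand for 28 of the 34 members. The letters TGATGCAA, on either strand, were found in the windows of 5 members (SLC1A5, CHAC1, CEBPG, JDP2 and SLC1A4) and in 0.866% of all 35116 windows. With the sixth base open (TGATGNAA, which includes the first motif) they were found in 8 members, adding ASNS, SLC3A2 and SLC7A1, and in 3.62% of all windows. The palindromic cyclic AMP response element TGACGTCA was found in 1 member, PPP1R15A, and in 1.85% of all windows. The matches are shown 5′ to 3′ on the gene's strand, with the motif in capitals and its first base counted from the RefSeq start (position -1 is the last base before it). SLC3A2 and SLC7A1 are left out because their matches lie after the start, at positions 38 and 8.
SLC1A5, chr19:46784893-46784922, minus strand, position -97: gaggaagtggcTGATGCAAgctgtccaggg
CHAC1, chr15:40953251-40953280, plus strand, position -209: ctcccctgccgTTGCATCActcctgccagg
ASNS, chr7:97872458-97872487, minus strand, position -68: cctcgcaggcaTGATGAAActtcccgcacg
CEBPG, chr19:33374060-33374089, plus strand, position -42: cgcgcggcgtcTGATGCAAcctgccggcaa
JDP2, chr14:75427995-75428024, plus strand, position -16: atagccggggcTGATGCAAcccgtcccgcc
SLC1A4, chr2:64989381-64989410, plus strand, position -7: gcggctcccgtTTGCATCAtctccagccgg
PPP1R15A, chr19:48872352-48872381, plus strand, position -58: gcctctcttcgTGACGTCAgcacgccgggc
In ASNS the match is part of what is known as the nutrient-sensing response element of that promoter. The stretches of SLC1A5, CHAC1, ASNS and SLC1A4 overlap annotated exons in GENCODE 29, and a match is a description of the letters only. As given below, SLC1A5, CHAC1, ASNS and PPP1R15A fell in the knockdown cells, while CEBPG, JDP2 and SLC1A4 did not pass the test. Of the carriers whose match lies after the start, SLC3A2 fell and SLC7A1 rose.

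Of the 33 members tested, 15 fell (45.5%) and 6 rose (18.2%) in shCTSZ at a limma adjusted p under 0.05. Over all tested genes 14.7% fell and 19.8% rose, 34.5% in either direction. The share of members that rose is thus near the background and the share that fell is above it. The members were chosen with earlier results of these data known, so these shares describe these genes only. The median log2 difference was -0.14 over the members and 0.04 over all tested genes, on the log2(TPM + 1) scale used throughout, which understates the change of low genes. In a fit adjusted for the GC content and length of transcripts these medians were -0.03 and 0.05. Groups did not overlap for 23 members (69.7%), against 50.3% of all tested genes. With median-of-ratios scaling 18 members fell and 4 rose, and the balance of all tested genes moved the same way, to 17.9% lower and 16.6% higher. Most changes were small: the median size among the 21 called members was 0.31, against 0.40 over all called genes. Of the 21 called members 3 (NUPR1, DDIT4 and DDIT3) differed by at least 1.5-fold in mean TPM, where 30.0% of all called genes did. The members summed to 8340 to 8728 TPM in the shControl libraries and 7556 to 7861 TPM in the shCTSZ libraries.

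**Figure D1:**
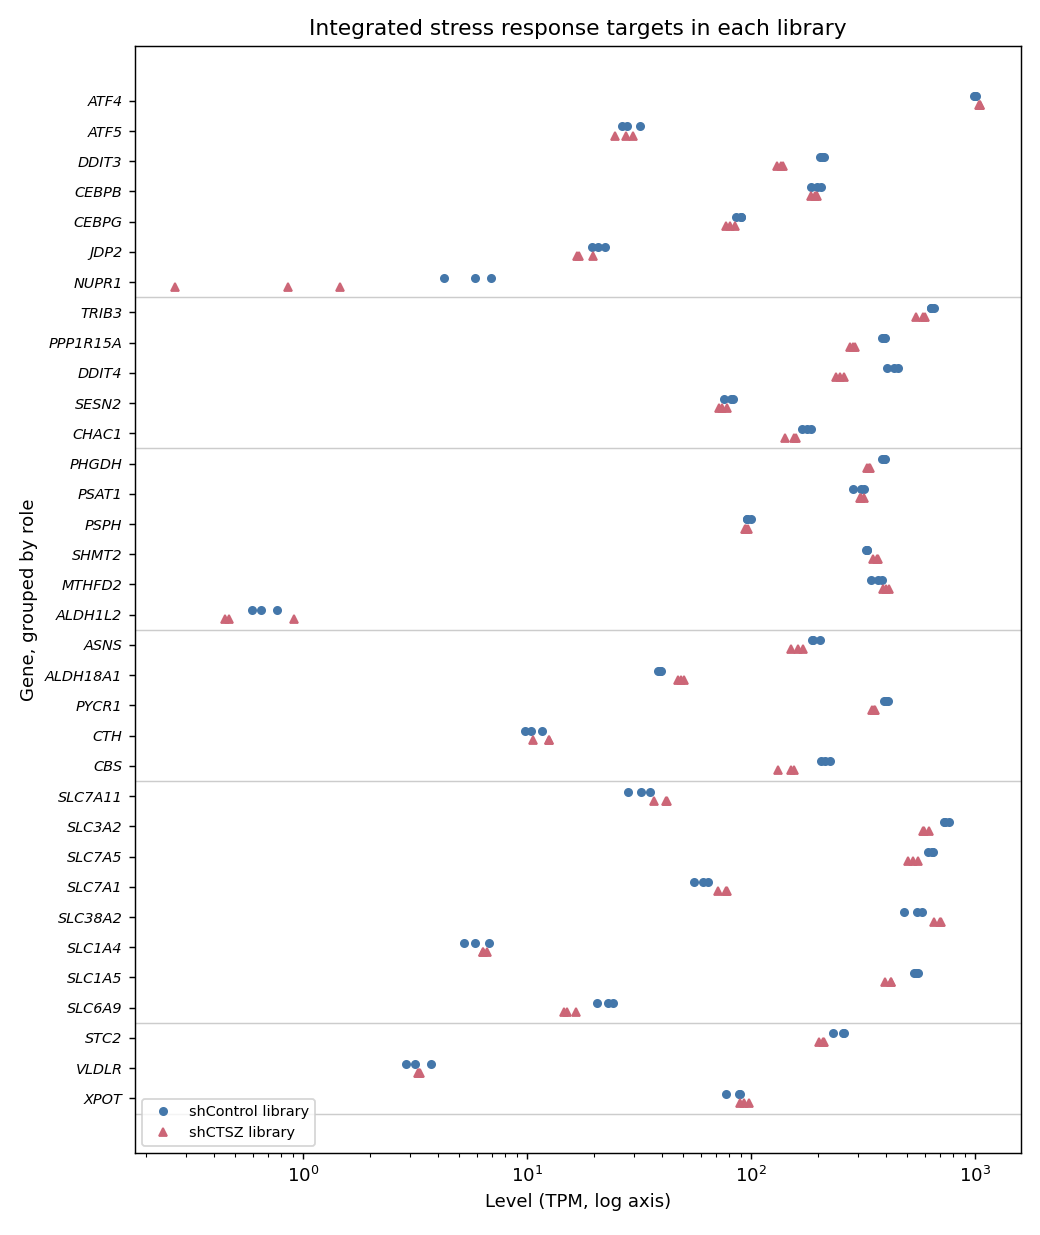
Level of each of the 34 members in TPM (log axis), grouped by role with grey lines between roles; circles are the 3 shControl libraries and triangles the 3 shCTSZ libraries. ATF4 stands highest in both groups (1001 and 1052 TPM on average), and the widest gap between the groups is that of NUPR1.

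**Figure D2:**
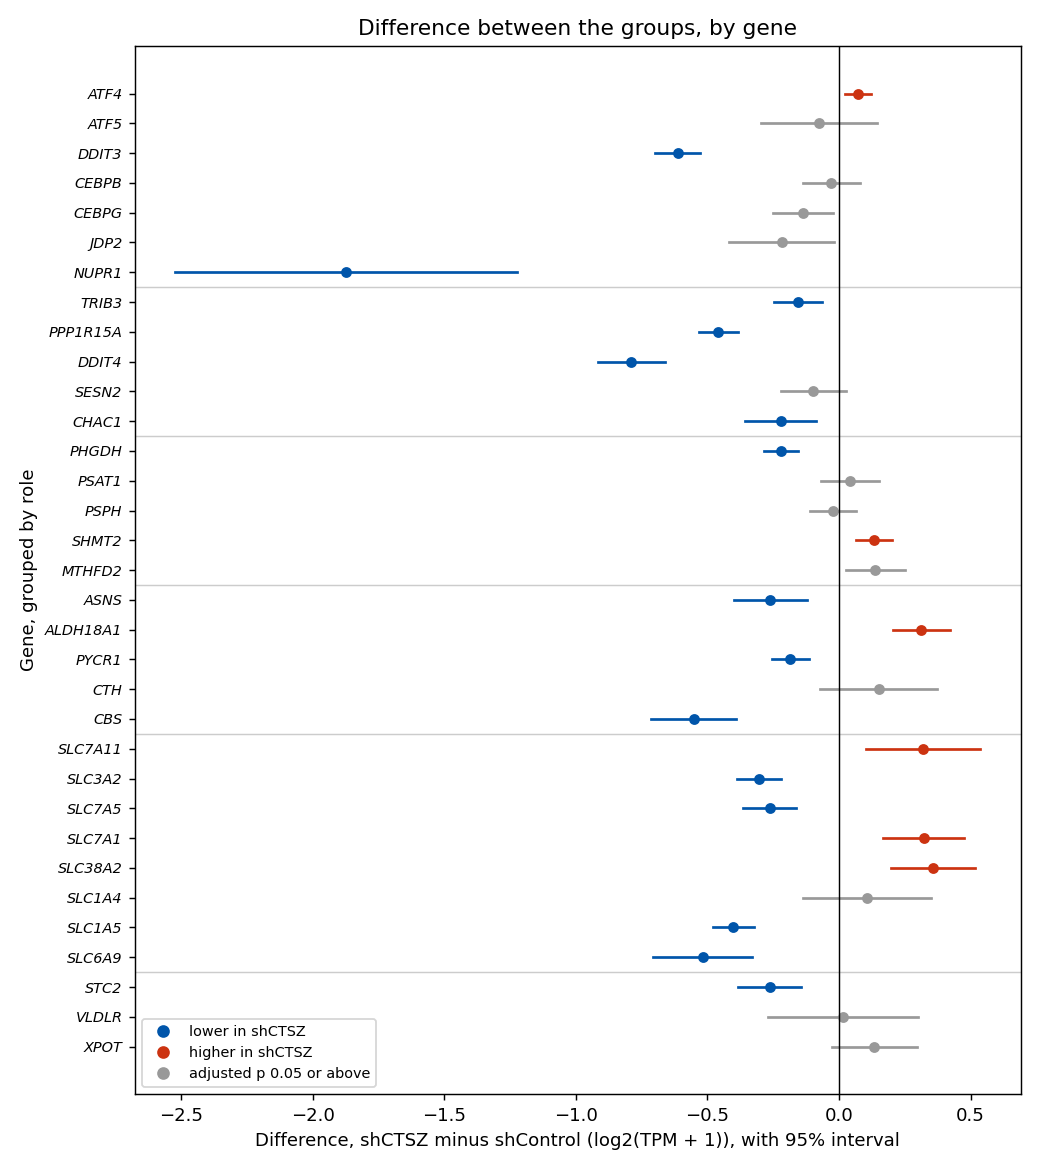
Difference between shCTSZ and shControl on the log2(TPM + 1) scale (points) with its 95% interval from limma (lines) for the 33 members tested, by role. Blue marks the 15 genes that fell, red the 6 that rose, and grey the 12 that did not pass the test.

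The transcription factors did not move as a block: of 7 members 2 fell (28.6%), 1 rose (14.3%) and 4 did not pass. The shares over all tested genes were 14.7% lower and 19.8% higher. ATF4 (ENSG00000128272, GRCh38 chromosome 22, 39519695 to 39522685) held 1010, 997 and 996 TPM in the control libraries and 1047, 1058 and 1051 TPM in the knockdown libraries. The knockdown libraries all lay above the control libraries, with a spread of 0.52% (coefficient of variation) in the knockdown group. The knockdown mean was 105% of the control mean (log2 difference 0.07, SE 0.021, limma adjusted p = 0.0361). This call was lost in 11 of 18 alternative fits. Among them were leaving out any 1 library (adjusted p 0.0589 to 0.1001 over the 6 fits) and median-of-ratios scaling (log2 difference 0.02, adjusted p = 0.541). Quantile normalisation gave 0.16.

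DDIT3, also called CHOP, is the bZIP factor induced by ATF4 in prolonged stress (ENSG00000175197, chromosome 12, 57516588 to 57521737, minus strand). It held 212, 204 and 208 TPM in shControl and 140, 136 and 131 TPM in shCTSZ. All knockdown libraries lay below all control libraries, at 65.2% of the control mean (log2 difference -0.61, SE 0.036, adjusted p = 1.46e-04). Set against ATF4 in the same library, DDIT3 went from 0.208 ± 0.0024 to 0.129 ± 0.0044 TPM per TPM. A second gene model on the same strand, ENSG00000285133, covers the DDIT3 locus and was listed at 903 ± 47 and 664 ± 131 TPM (log2 difference -0.46, adjusted p = 0.0384), and how reads were shared out between the models is uncertain. The sum of both was 1111 ± 43 TPM in shControl and 799 ± 134 TPM in shCTSZ, again without overlap. On the other strand DDIT3 overlaps MARS1, which held 720 ± 49 and 705 ± 30 TPM.

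NUPR1, a small stress-induced chromatin protein, showed the widest difference among the members, but its knockdown mean was 0.867 TPM, so it passed the filter of 1 TPM only through the control group. Its values were 5.90, 4.25 and 6.91 TPM with the control vector and 1.47, 0.27 and 0.86 TPM with the hairpin. The groups did not overlap and the knockdown mean was 15.2% of the control mean (log2 difference -1.87, SE 0.27, adjusted p = 0.00292). As the lowest tested member but 1 in shControl, it also had the widest spread, 69.2% of the mean in shCTSZ. Its value depended on the number added before taking logs, from -2.79 with 0.1 TPM to -0.86 with 5 TPM, and it was called with each.

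The other 4 factors did not pass the test. ATF5, an ATF4 relative that is also controlled at translation, held 28.98 ± 2.8 and 27.5 ± 2.6 TPM (log2 difference -0.07, 95% interval -0.29 to 0.15), and NUP62, which it overlaps on the other strand, held 62.3 ± 2.6 and 72.8 ± 2.8 TPM. CEBPB, a partner and target of ATF4, held 196 ± 9.5 and 192 ± 6.4 TPM (-0.03, 95% interval -0.14 to 0.08). Both groups overlapped for each of these factors. CEBPG, the dimer partner of ATF4 on many of its elements, held 90.6, 90.6 and 85.6 TPM in shControl and 77.2, 84.7 and 80.7 TPM in shCTSZ; its groups did not overlap, but its adjusted p was 0.0682 (log2 difference -0.14). JDP2, a bZIP repressor, held 20.9 ± 1.4 and 17.8 ± 1.7 TPM (-0.22, adjusted p = 0.0879), with overlapping groups. CEBPG passed with median-of-ratios scaling (-0.18, adjusted p = 0.0136) and in the fit adjusted for GC content and length (-0.32, adjusted p = 0.00146). JDP2 passed with median-of-ratios scaling (-0.26, adjusted p = 0.038) and without shCTSZ replicate 2 (-0.29, adjusted p = 0.0461), but stood at -0.064 (adjusted p = 0.640) in the fit adjusted for GC content and length.

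Of the 5 feedback and stress effectors 4 fell and 0 rose, where 14.7% and 19.8% of all tested genes did. The fit adjusted for GC content and length gave 2 lower and 0 higher, beside 12.0% and 19.2% of all genes in that fit. The median log2 difference of these effectors was -0.22 in the main fit and -0.03 in the adjusted fit. DDIT4, or REDD1, a brake on the growth kinase complex mTORC1 (ENSG00000168209, chromosome 10, 72273920 to 72276036), held 405, 456 and 438 TPM in shControl and 249, 239 and 262 TPM in shCTSZ. The knockdown mean was 57.7% of the control mean (log2 difference -0.79, SE 0.054, adjusted p = 2.19e-04), and the gap between the groups was wide beside the spread within them. PPP1R15A, or GADD34, the phosphatase subunit that removes the phosphate from eIF2 and so ends the response (ENSG00000087074, chromosome 19, 48872392 to 48876057), held 393, 386 and 397 TPM in shControl and 276, 292 and 287 TPM in shCTSZ. It fell to 72.7% of the control mean (-0.46, SE 0.032, adjusted p = 2.29e-04), again without overlap.

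TRIB3, a pseudokinase that restrains ATF4 and DDIT3, and CHAC1, which degrades glutathione, fell by less. TRIB3 held 656, 636 and 639 TPM in shControl and 547, 590 and 598 TPM in shCTSZ (log2 difference -0.16, adjusted p = 0.0209). CHAC1 held 186, 169 and 178 TPM in shControl and 159, 141 and 157 TPM in shCTSZ (-0.22, adjusted p = 0.0229). In each of these genes all knockdown libraries lay below all control libraries. TRIB3 and CHAC1 each kept the call in 11 of 18 alternative fits. Both calls were lost on leaving out single libraries, that of TRIB3 without shControl replicate 1, 2 or 3 (adjusted p 0.0715, 0.0571 and 0.0586), and that of CHAC1 without shControl replicate 1 or 3 (0.0749 and 0.0729) or shCTSZ replicate 2 or 3 (0.0553 and 0.054). In the fit adjusted for GC content and length TRIB3 stood at 0.039 (adjusted p = 0.580) and CHAC1 at -0.032 (adjusted p = 0.724), and neither was called. SESN2, another inhibitor of mTORC1 signalling, held 80.1 ± 3.8 and 74.8 ± 3.2 TPM and did not pass (-0.10, 95% interval -0.22 to 0.03), except with median-of-ratios scaling (-0.15, adjusted p = 0.0371).

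**Figure D3:**
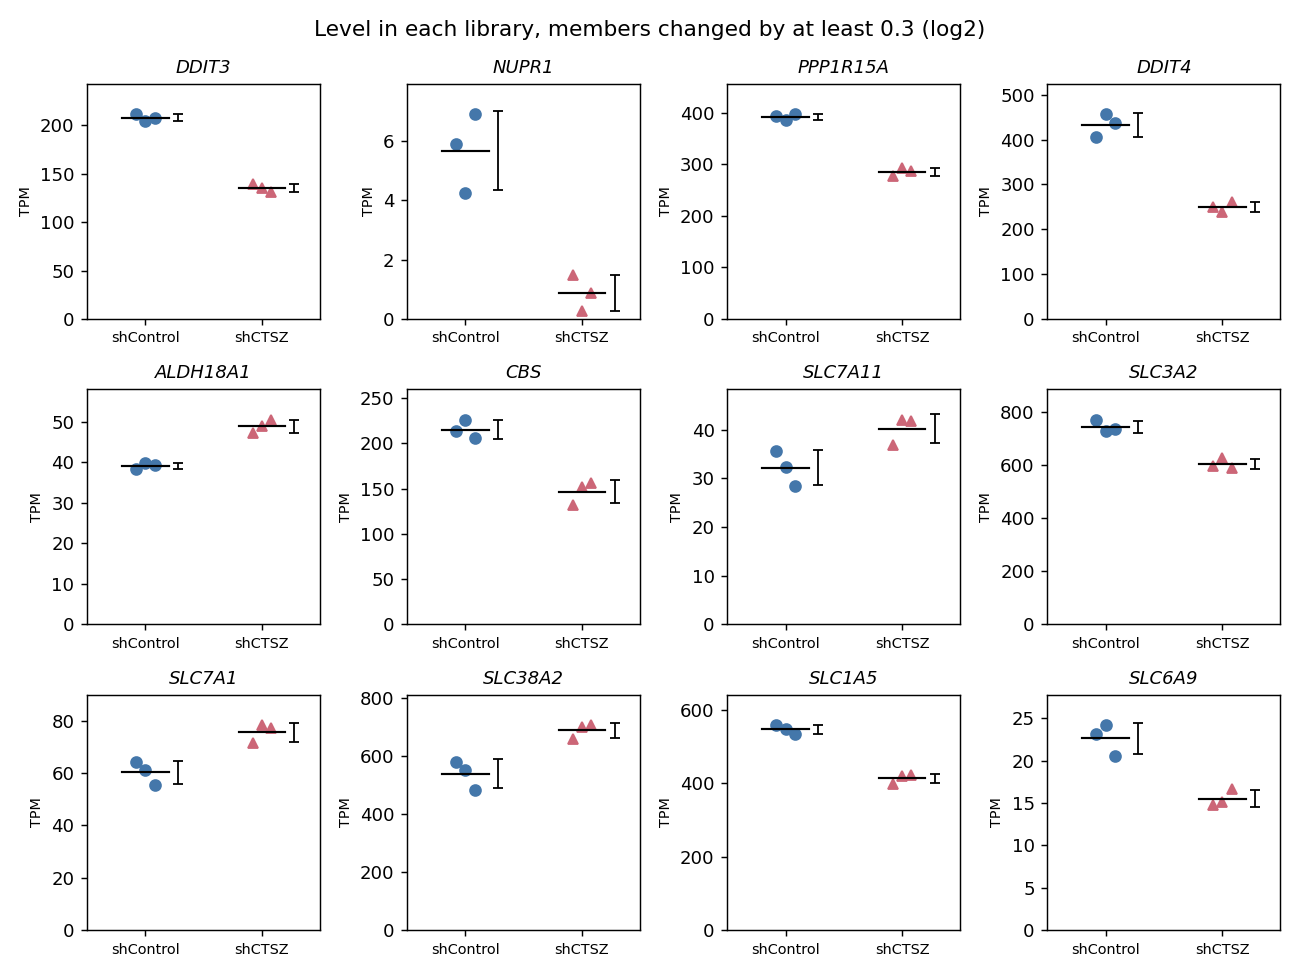
Level in TPM (axes from 0) in each library for the 12 called members whose log2 difference was at least 0.3 in size; symbols are libraries, horizontal lines group means and bars beside them ± 1 SD (n = 3). No panel has overlapping groups: 8 genes are lower in shCTSZ and ALDH18A1, SLC7A11, SLC7A1 and SLC38A2 are higher.

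Of the 5 tested enzymes of serine synthesis and one-carbon metabolism 1 fell (20.0%) and 1 rose (20.0%), near the 14.7% and 19.8% of all tested genes. PHGDH, the first enzyme of serine synthesis (ENSG00000092621, chromosome 1, 119648411 to 119744226), held 393, 386 and 396 TPM in shControl and 331, 335 and 341 TPM in shCTSZ, and fell without overlap (log2 difference -0.22, SE 0.027, adjusted p = 0.00165). The next enzymes did not pass: PSAT1 held 305 ± 18 and 313 ± 7.2 TPM (0.04, 95% interval -0.07 to 0.15) and PSPH 97.4 ± 2.4 and 95.8 ± 1.7 TPM (-0.02, 95% interval -0.11 to 0.06). The ratio of PSAT1 to PHGDH within a library was therefore 0.719 to 0.813 in shControl and 0.912 to 0.959 in shCTSZ. SHMT2, the mitochondrial enzyme that moves a carbon unit from serine to folate, rose from 328, 330 and 332 TPM to 352, 365 and 369 TPM (0.13, SE 0.029, adjusted p = 0.0133). That call was lost in 2 of 18 alternative fits, among them median-of-ratios scaling (0.08, adjusted p = 0.0753). The value of SHMT2 was 0.26 after adjustment for GC content and length. MTHFD2, the next mitochondrial folate enzyme, held 366 ± 21 and 402 ± 12 TPM without overlap and did not pass (0.14, adjusted p = 0.0611), though it did without shControl replicate 1 (0.17, adjusted p = 0.0444), and stood at 0.059 after adjustment for GC content and length.

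Of the asparagine, proline and cysteine enzymes 3 of 5 fell and 1 rose, where 14.7% and 19.8% of all tested genes did. The fit adjusted for GC content and length gave 2 lower and 1 higher, beside 12.0% and 19.2% of all genes in that fit. The median log2 difference of these enzymes was -0.18 in the main fit and -0.0053 in the adjusted fit. CBS, which joins homocysteine with serine on the way to cysteine (ENSG00000160200, chromosome 21, 43053191 to 43076943), held 214, 226 and 206 TPM in shControl and 132, 151 and 157 TPM in shCTSZ. It fell to 68.2% of the control mean (log2 difference -0.55, SE 0.069, adjusted p = 0.00165). CTH, the following enzyme, held 10.6 ± 0.95 and 11.9 ± 1.1 TPM and did not pass (0.15, 95% interval -0.07 to 0.37). ASNS, asparagine synthetase, held 204, 189 and 187 TPM in shControl and 150, 171 and 163 TPM in shCTSZ and fell without overlap (-0.26, SE 0.058, adjusted p = 0.0137).

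The first and last steps of proline synthesis moved in opposite directions. ALDH18A1, which starts the route from glutamate, rose from 38.4, 39.7 and 39.2 TPM to 47.3, 48.8 and 50.4 TPM (log2 difference 0.31, SE 0.045, adjusted p = 0.00279). PYCR1, which ends it, fell from 400, 411 and 394 TPM to 346, 358 and 356 TPM (-0.18, SE 0.030, adjusted p = 0.00414). The ratio of PYCR1 to ALDH18A1 was 10.3 ± 0.20 in shControl and 7.24 ± 0.15 in shCTSZ. After adjustment for GC content and length the call of PYCR1 was lost (-0.0053, adjusted p = 0.932) and that of ALDH18A1 held (0.27, adjusted p = 0.00592).

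Of the 8 amino acid transporters 4 fell, 3 rose and 1 did not pass. Over all tested genes 14.7% fell and 19.8% rose. The fit adjusted for GC content and length gave 4 transporters lower and 2 higher, beside 12.0% and 19.2% of all genes in that fit. SLC1A5, or ASCT2, an exchanger of glutamine and other neutral amino acids (ENSG00000105281, chromosome 19, 46774883 to 46788594), held 558, 547 and 535 TPM in shControl and 399, 421 and 421 TPM in shCTSZ. It fell to 75.7% of the control mean (log2 difference -0.40, SE 0.033, adjusted p = 4.08e-04). SLC6A9, the glycine transporter GLYT1, fell from 23.1, 24.2 and 20.6 TPM to 14.7, 15.1 and 16.6 TPM (-0.52, SE 0.080, adjusted p = 0.00356). SLC38A2, or SNAT2, which takes up glutamine and alanine with sodium, moved the other way, from 581, 553 and 484 TPM to 660, 702 and 707 TPM (0.36, SE 0.068, adjusted p = 0.00750). It went from the sixth to the second highest level among the members. SLC7A1, or CAT1, which carries arginine and lysine, rose from 64.3, 61.3 and 55.6 TPM to 71.5, 78.3 and 77.2 TPM (0.32, SE 0.065, adjusted p = 0.00957). SLC1A4, or ASCT1, a relative of SLC1A5, was low, with 5.95 ± 0.77 and 6.46 ± 0.18 TPM (0.11, 95% interval -0.14 to 0.35).

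The heavy chain SLC3A2 pairs with light chains, among them SLC7A5 (LAT1, for large neutral amino acids) and SLC7A11 (xCT, which imports cystine). SLC3A2 fell from 769, 727 and 735 TPM to 594, 625 and 589 TPM (log2 difference -0.30, SE 0.035, adjusted p = 0.00125). SLC7A5 fell from 651, 642 and 616 TPM to 505, 527 and 558 TPM (-0.26, SE 0.043, adjusted p = 0.00427). The ratio of SLC7A5 to SLC3A2 was 0.856 ± 0.024 in shControl and 0.881 ± 0.058 in shCTSZ, with overlapping groups. SLC7A11 rose from 35.6, 32.4 and 28.4 TPM to 36.9, 42.0 and 41.8 TPM (0.32, SE 0.092, adjusted p = 0.0344), and its ratio to SLC3A2 went from 0.0432 ± 0.0040 to 0.0668 ± 0.0044 without overlap. The call of SLC7A11 was lost in 8 of 18 alternative fits. Among them were those without shControl replicate 2 or 3 (adjusted p 0.091 and 0.0863) or shCTSZ replicate 2 or 3 (0.113 and 0.118). It was also lost after adjustment for GC content and length (0.14, adjusted p = 0.166). SLC7A5 has a processed copy, SLC7A5P2, at 9.37 ± 5.6 and 10.5 ± 0.87 TPM, so a small part of its reads is uncertain.

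Of the remaining members, STC2, a secreted glycoprotein hormone induced by ATF4, fell from 257, 260 and 232 TPM to 202, 210 and 211 TPM (log2 difference -0.26, SE 0.050, adjusted p = 0.00774). Its call was lost after adjustment for GC content and length (-0.17, adjusted p = 0.0642). VLDLR, a lipoprotein receptor, held 3.26 ± 0.44 and 3.30 ± 0.031 TPM (0.02, 95% interval -0.27 to 0.30), and XPOT, which exports tRNA from the nucleus, 85.3 ± 6.9 and 93.6 ± 4.5 TPM (0.13, 95% interval -0.03 to 0.29). Neither passed the test, and the groups of both overlapped.

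Direction went along with the base composition of the transcripts. The 15 members that fell had a median GC content of 60.4%, the 6 that rose 52.4% and the 12 that did not pass 49.3%, against 50.03% for all tested genes. Across the 33 members the log2 difference and GC content had a Pearson r of -0.46 (Spearman rho -0.53), and across 14324 tested genes -0.22 (-0.30); these are correlations across genes that share the same 6 libraries, given as descriptions. Over all tested genes the median log2 difference was 0.15 at 40 to 45% GC and -0.14 above 60% GC. The adjusted fit used above takes out of each library a smooth curve over GC content and transcript length. In it 12 of the 33 members were lower (36.4%) and 5 higher (15.2%), where 12.0% of all genes in that fit were lower and 19.2% higher. Of the calls given above, 11 falls and 5 rises were also made in that fit, DDIT3 (-0.66), DDIT4 (-0.59), PPP1R15A (-0.38), CBS (-0.40), ASNS (-0.36), SLC1A5 (-0.30), SLC7A1 (0.40) and SLC38A2 (0.29) among them. The cause of the trend over GC content was not tested.

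The libraries of a group differed little for these genes, with a median coefficient of variation of 4.86% in shControl and 3.74% in shCTSZ. They were not interchangeable, however. The first control library held the highest value of its group for 21 of the 33 members and the third the lowest for 19, and the first knockdown library was the lowest of its group for 22. The rises of SLC38A2 and SLC7A1 and the fall of CBS held on leaving out each library in turn (highest adjusted p 0.0418, 0.0438 and 0.0119).

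A separate list of 24 genes, mostly ones that sense the stress or act on eIF2, was tested in full, and 6 rose and 3 fell. It also holds NFE2L2, which fell (log2 difference -0.22), and QRICH1, which rose (0.19). EIF2AK1, the haem-regulated kinase HRI that also relays mitochondrial stress, rose from 41.3 ± 1.9 to 54.2 ± 2.2 TPM (log2 difference 0.38, adjusted p = 0.00247). EIF2S1, the eIF2 subunit that is phosphorylated, rose from 82.5 ± 8.6 to 110 ± 6.7 TPM (0.41, adjusted p = 0.00958), and IMPACT, an inhibitor of the kinase GCN2, from 9.84 ± 0.55 to 13.4 ± 0.99 TPM (0.41, adjusted p = 0.00804). PPP1CA, a catalytic partner of PPP1R15A, fell from 361 ± 7.3 to 290.5 ± 6.8 TPM (-0.31, adjusted p = 7.64e-04; -0.17 after adjustment for GC content and length). The median over the list was 0.18, where that of all tested genes was 0.04. After adjustment for GC content and length these medians were 0.11 and 0.05. In the main fit 37.5% of its genes passed in either direction, near the 34.5% of all tested genes. Under median-of-ratios scaling 4 rose and 5 fell, beside 16.6% and 17.9% of all tested genes, so the balance of this list depended on scaling.

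Of 50 further genes known as ATF4 targets 47 were tested, and 18 fell (38.3%) and 6 rose (12.8%), where 14.7% and 19.8% of all tested genes did. The median log2 difference was -0.12, against 0.04 over all tested genes. This list and the other further lists were chosen with earlier results of these data known, so their shares describe these genes only. GDF15, a stress-induced cytokine, fell from 5274 ± 212 to 2269 ± 177 TPM (-1.22, adjusted p = 7.75e-05). SQSTM1, an autophagy receptor, fell from 521 ± 21 to 384 ± 9.7 TPM, MAP1LC3B, a protein of the autophagosome membrane, from 263 ± 11 to 177 ± 9.4 TPM, and BBC3, or PUMA, a BH3-only death factor, from 60.3 ± 1.6 to 40.8 ± 1.9 TPM. Other pathways are known to control these genes too, and SQSTM1 (-0.44) and BBC3 (-0.55) were smaller after adjustment for GC content and length (-0.26 and -0.36).

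Genes of the ATF6 and IRE1 arms of the unfolded protein response, which run beside the eIF2 kinase PERK, rose in 9 of 26 cases (34.6%) and fell in 5 (19.2%), where 19.8% and 14.7% of all tested genes did. HSPA5, the main chaperone of the endoplasmic reticulum, fell from 388 ± 23 to 276 ± 10 TPM (log2 difference -0.49, adjusted p = 8.38e-04). In contrast PDIA4, a disulfide isomerase, rose from 142 ± 0.77 to 168 ± 2.3 TPM, CREB3L2, a membrane-bound transcription factor, from 5.51 ± 0.19 to 8.96 ± 0.74 TPM, and SEL1L, a subunit of the degradation complex of that compartment, from 7.19 ± 0.85 to 15.1 ± 3.8 TPM. With median-of-ratios scaling 5 genes of these arms rose and 8 fell, beside 16.6% and 17.9% of all tested genes, so the balance of this list depended on scaling.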

How the data were processed

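Total RNA was taken with TRIzol and made into SMARTer mRNA-seq libraries, per the labels' protocols. The authors deposited 1 table of TPM values per gene for the 6 libraries, in which every column sums to the same total. The submitters' processing notes name fastp, RSEM and the build GRCh38.p13. Tool versions, aligner, annotation release and strand use: not given in the sources used here. Being shares of a fixed total, TPM of different genes are not independent.

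Columns were matched to samples by description. Symbols came from the gene name table, and positions, GC content and lengths (medians over transcripts) from GENCODE 29 on GRCh38, present for 96.3% of the 14874 rows with a mean of at least 1 TPM. Log2(TPM + 1) values were fitted with limma 3.58.1 in R 4.3.3. The model held the group alone, variances were moderated towards a trend over the mean level, and p-values were adjusted by Benjamini-Hochberg across all these rows, with 0.05 as the threshold. The fit was tested on simulated independent values in which a small share of genes changed, each by at least 1.5-fold. That simulation did not cover smaller changes or values that share a fixed total, as TPM do. An exact permutation test of 3 against 3 libraries was not used, as it has too few arrangements. For the GC and length trend, natural splines with 5 degrees of freedom each were removed per library. The named genes are all members, CTSZ, and up to 4 called genes with the smallest adjusted p in each further list. NFE2L2, QRICH1 and FGF21 of these lists are named besides. The members and lists were chosen with earlier results of these data known. Motifs were searched as exact letters in RefSeq promoters of GRCh38.p14. Some cell line markers are not reported here.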

Additional observations from a re-analysis of the deposited data

How the results depend on the processing

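Of the 21 called members, 14 (11 lower, 3 higher) kept their call and direction under all 18 alternatives in which they were tested, apart from the test against a 1.5-fold difference; NUPR1 was not tested at a mean of at least 5 TPM. In that 1.5-fold test 0 members were called in either direction, 148 of all genes were lower and 23 higher, 0 sensor genes were called, 1 further ATF4 target was lower and 0 higher, and 0 genes of the other arms were called. At an unadjusted p under 0.05, the same limma test gave 2 members lower and 0 higher, 0 sensor genes, 3 further targets lower and 0 higher, and 1 gene of the other arms higher and 0 lower. Leaving out each library in turn gave 13 to 15 members lower and 4 to 6 higher, 1657 to 1776 of all genes lower and 1981 to 2575 higher, 2 to 3 sensor genes lower and 4 to 7 higher, 13 to 17 further targets lower and 3 to 7 higher, and 2 to 6 genes of the other arms lower and 5 to 9 higher. Without the trend in the moderation 3 members were higher, and 2 genes of the other arms lower and 5 higher. Of all tested genes 1939 were lower and 2716 higher in that fit, against 2185 and 2950 in the main fit. With median-of-ratios scaling 5 sensor genes were lower and 4 higher, and 8 genes of the other arms lower and 5 higher.

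Signs turned for members with small differences: after adjustment for GC content and length for ATF5 (0.11), CEBPB (0.15), TRIB3 (0.039), PSAT1 (-0.064) and VLDLR (-0.090), with median-of-ratios scaling for PSAT1 (-0.0086) and VLDLR (-0.022), and with a weight per library for VLDLR (-0.019). Leaving out each library gave -0.14 to 0.00043 for ATF5, -0.066 to 0.0037 for CEBPB, -0.0069 to 0.075 for PSAT1 and -0.049 to 0.095 for VLDLR, the sign turning without shControl replicate 1 (ATF5, CEBPB, VLDLR) or 3 (PSAT1). The cause was not tested.

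The descriptions give both groups the same replicate numbers, but the sample titles number the shCTSZ samples differently from the shControl samples. Libraries of the same description number did not deviate together (correlations of deviations from the group means -0.09, -0.02 and -0.04). With the replicate number as a block 14 members were lower and 4 higher, 3 further targets were higher, and 2 genes of the other arms were lower and 4 higher. Of all tested genes 1790 were lower and 2236 higher in that fit, against 2185 and 2950 in the main fit. Depth is unknown and sets no limit that can be given.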
